A study of Rattus norvegicus with 24 samples.

Results

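Genes of apoptosis, necroptosis and p53 signalling were followed in the brains of rats with a stab wound and of normal rats. The 41 genes were taken by name from the count table, which holds 29539 genes, and were placed in 11 groups by their role in cell death. Of the 41, 39 were in the table and 38 had counts high enough to be tested. Bik, a BH3-only protein, was under the filter on low counts, with 0 to 5 counts in normal control libraries, 0 to 6 in vehicle and 1 to 10 in SKF. Bcl2 and Hrk were not analysed here.

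Poly(A)-selected RNA from tissue labelled brain (Rattus norvegicus) was sequenced in 3 groups of 8 libraries. The normal control group carries no further label. The vehicle group has that single word as its label and is taken here to be wounded brain that received only the carrier of the drug. The SKF group received SKF-81297, an agonist of D1-like dopamine receptors, after a stab wound to the forebrain. Injections went into the peritoneum once a day on 3 days, beginning 1 h after wounding. The labels name no strain, age, brain region or time of collection, and do not describe normal control as sham-operated. Whether the 8 libraries of a group are 8 animals is not stated, so each p measures the spread between these samples, which may be partly technical.

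Cells die by several programmes that share proteins. In the intrinsic pathway, BH3-only proteins and the pore formers Bax and Bak1 open the outer mitochondrial membrane unless pro-survival Bcl2 proteins hold them back, and released cytochrome c then assembles Apaf1 and Casp9 into the apoptosome. In the extrinsic pathway, death receptors recruit Fadd and Casp8, and where Casp8 is not active, Ripk1 and Ripk3 can instead drive Mlkl to rupture the plasma membrane, which is necroptosis. Inflammatory caspases cut Gsdmd to form the pores of pyroptosis. The transcription factor p53 induces Cdkn1a, Mdm2 and several BH3-only genes after DNA damage. After brain injury these programmes operate in neurons, in glia and in the white blood cells that enter the wound.

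Total counts ran from 8911339 to 12383368 per library. Within a gene, values are given as CPM (counts scaled to library size by TMM), and between genes as TPM, which also accounts for gene length. Sums over death genes are in TPM unless CPM is named. Against normal control, the median log2(TPM + 1) difference of all genes was itself 0.11 for vehicle and 0.09 for SKF. Genes were called at an adjusted p under 0.05 (edgeR quasi-likelihood F test, Benjamini-Hochberg over 14421 genes). Among marker genes, neuronal and oligodendrocyte markers were present in all groups. The summed level of 9 neutrophil markers was 11.8 to 16.1 CPM in normal control, 134 to 274 in vehicle and 133 to 246 in SKF, and 7 of 7 tested rose in vehicle. By mean, Lcn2 was the largest part of that sum in both wounded groups, at 65.3 to 190 CPM in vehicle and 58.0 to 194 in SKF. Against vehicle, all 7 tested were lower in SKF, with a median log2 fold change of -0.68, and none was called. The sum of 9 monocyte and macrophage markers was 61.0 to 104 CPM in normal control, 515 to 861 in vehicle and 455 to 818 in SKF, and 8 of 8 tested rose. Its largest part by mean was Fn1, at 212 to 461 CPM in vehicle and 236 to 408 in SKF. All 7 oligodendrocyte markers and 6 of 8 neuronal markers fell in vehicle. Of 7 microglial markers, 2 rose and 2 fell, and of 7 astrocyte markers, Gfap rose and 6 fell. No marker was at 0 in all 24 libraries. Normal control 4 held 2156 CPM of 6 muscle transcripts, against 6.11 to 17.2 CPM in the other 23 libraries. In bulk tissue, fewer cells of a type and less RNA per cell cannot be told apart, and the part of cell composition in the changes below was not tested.

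The comparison of vehicle with normal control asked which death genes differed in wounded brain. Of the 38 genes, 26 rose (68.4%) and 4 fell (10.5%), where 26.9% of all 14421 genes rose and 27.1% fell. In either direction 30 were called, 78.9% against 54.0% of all genes. The rises were led by Bcl2a1, Ripk3 and Birc3, followed by Gadd45a, Gadd45g and Casp4. Casp9, Bcl2l2, Bok and Bmf fell. At least 2-fold rises were seen in 12 genes (31.6%), against 7.69% of all genes. The median log2 fold change was 0.58 over the 38 genes and -0.01 over all genes tested. Among all genes edgeR called 3879 higher and 3904 lower on counts. On log2(TPM + 1), limma called 5476 of 15280 genes higher and 2408 lower, with the median of all genes at 0.11. For the death genes, of which 39 were tested on the TPM scale (Bik included), that split was 27 higher and 3 lower.

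In 16 genes (42.1%) every vehicle library lay above every normal control library, against 11.6% of all genes. They were Casp8, Casp4, Bcl2a1, Mcl1, Bak1, Bid, Birc3, Fadd, Ripk1, Ripk3, Mdm2, Cdkn1a, Ccng1 and the 3 Gadd45 genes. In Bcl2l2 and Bmf every vehicle library lay below every normal control library, a pattern of 7.5% of all genes. Vehicle 5 was the lowest vehicle library for 16 of the 26 genes that rose, and vehicle 2 and vehicle 1 were the highest for 9 and 8 of them. Whether the same libraries were extreme for all genes that rose was not tested. SKF was compared with the same 8 normal control libraries, so the vehicle and SKF values given side by side below are not independent. In SKF, 25 genes rose (65.8%, against 25.5% of all genes) and 5 fell (13.2%, against 24.7%). On log2(TPM + 1), limma called 4996 of 15280 genes higher and 2296 lower in SKF, where edgeR called 3682 and 3557 of 14421 on counts. For the 39 death genes tested on that scale, the TPM split in SKF was 27 higher and 2 lower.

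**Figure D1:**
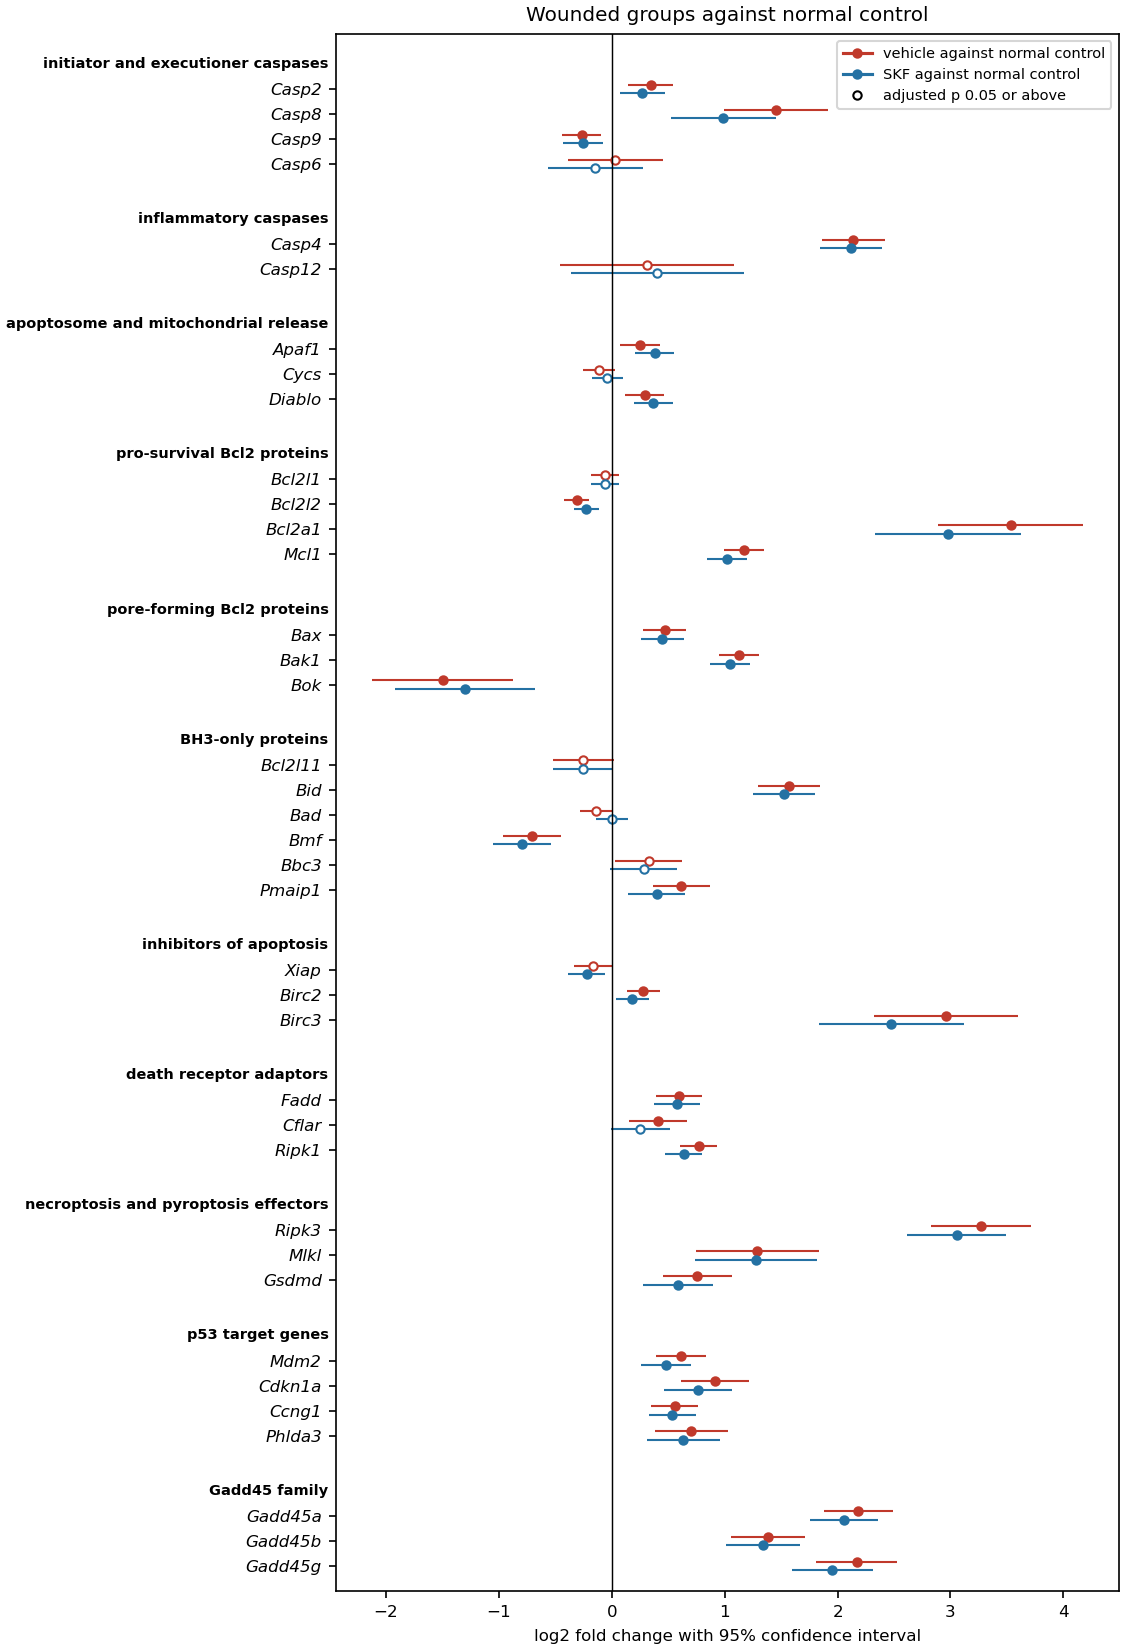
Log2 fold change against normal control (x axis) for the 38 tested genes (y axis, grouped by role), in vehicle (red) and SKF (blue). Lines are 95% confidence intervals and open circles did not pass an adjusted p of 0.05; Bcl2a1, Ripk3 and Birc3 lie farthest right in both groups and Bok farthest left.

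Among the initiator and executioner caspases, Casp2 and Casp8 rose, Casp9 fell and Casp6 did not pass the test. Casp8, the initiator recruited by death receptors, ran from 0.691 to 2.25 CPM in normal control (median 1.32), from 3.03 to 4.88 in vehicle (median 3.65) and from 1.64 to 3.54 in SKF (median 2.82). All vehicle libraries were above the controls, while the lowest SKF libraries overlapped the highest controls. Its log2 fold change was 1.45 ± 0.22 (SE) in vehicle (adjusted p = 4.19e-06) and 0.99 ± 0.23 in SKF (adjusted p = 0.000683), on 7 to 23 counts per normal control library. Casp2, an initiator activated by the PIDDosome, ran from 12.8 to 18.8 CPM in normal control (median 17.4), from 17.8 to 27.1 in vehicle (median 20.8) and from 17.2 to 24.9 in SKF (median 19.6). The upper controls reached the lower wounded libraries, and normal control 2 lay below all others. It rose by 0.35 ± 0.10 in vehicle (adjusted p = 0.00397) and by 0.27 ± 0.10 in SKF (adjusted p = 0.0224), a call lost without normal control 2 (adjusted p = 0.0561), SKF 5 (0.0552) or SKF 6 (0.0639).

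Casp9, the caspase of the apoptosome, was 35.7 to 58.8 CPM in normal control and 29.9 to 42.5 in vehicle, and it fell by 0.27 ± 0.08 in vehicle and by 0.26 ± 0.08 in SKF. On log2(TPM + 1) its difference was -0.13 in vehicle and -0.14 in SKF and did not pass (limma adjusted p = 0.181 and 0.163). Casp6, an executioner caspase linked to axon degeneration, had a log2 fold change of 0.03 in vehicle and -0.15 in SKF. The 4 caspases together held 53.2 ± 3.46 TPM (SD, n = 8) in normal control, against 58.3 ± 4.14 in vehicle and 55.0 ± 6.10 in SKF. Casp9 held the most of that sum, at 34.6 ± 4.68 TPM in normal control, and Casp8 the least, at 1.49 ± 0.630.

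The inflammatory caspases differed from each other. Casp4, which senses bacterial lipopolysaccharide in the cytosol and cuts Gsdmd, ran from 2.08 to 3.04 CPM in normal control (median 2.54), from 6.91 to 15.0 in vehicle (median 11.2) and from 9.40 to 13.2 in SKF (median 11.2). Each wounded library was above each control, with vehicle 5 the lowest. Casp4 rose by 2.14 ± 0.13 in vehicle (adjusted p = 3.24e-13) and by 2.12 ± 0.13 in SKF (adjusted p = 5.00e-13), which is 4.41-fold and 4.34-fold. Casp12, a caspase of the endoplasmic reticulum, was measured on few reads, with 1 to 15 counts in normal control, 3 to 17 in vehicle and 6 to 23 in SKF. Its log2 fold change of 0.31 in vehicle (95% confidence interval -0.46 to 1.08) did not pass the test, and at this depth the interval still covers a doubling.

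Of the apoptosome and mitochondrial release genes, Apaf1 and Diablo rose and Cycs did not pass. Diablo, which binds inhibitors of apoptosis once it leaves the mitochondrion, ran from 13.9 to 19.8 CPM in normal control (median 16.1), from 17.2 to 24.4 in vehicle (median 19.2) and from 17.0 to 23.5 in SKF (median 21.6). Apaf1, the scaffold of the apoptosome, ran from 16.8 to 26.1 CPM in normal control (median 18.3), from 19.8 to 27.7 in vehicle (median 22.1) and from 21.7 to 27.8 in SKF (median 25.4). Both genes overlapped between the groups, and for Apaf1 the overlap came from normal control 1 and the library next to it. Diablo rose by 0.29 ± 0.08 in vehicle (adjusted p = 0.00505) and by 0.37 ± 0.08 in SKF (adjusted p = 0.000696). Apaf1 rose by 0.25 ± 0.08 in vehicle (adjusted p = 0.0142) and by 0.38 ± 0.08 in SKF (adjusted p = 0.000463), and its vehicle call was lost when normal control 4 and 6 were left out together (adjusted p = 0.0633). Cycs, cytochrome c, was the most abundant of the 39 genes in every group, at 261 ± 25.1 TPM (SD, n = 8) in normal control, against 264 ± 18.3 in vehicle and 273 ± 23.4 in SKF. Rodent genomes carry processed copies of Cycs, and the sources used here do not say how reads were shared among them.

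The 4 tested pro-survival Bcl2 proteins went different ways. Bcl2a1, a survival protein best known from white blood cells, ran from 0.191 to 1.45 CPM in normal control (median 0.821), from 5.21 to 17.4 in vehicle (median 8.02) and from 3.93 to 9.28 in SKF (median 5.55). All wounded libraries lay above all controls, and vehicle 1 stood above the other vehicle libraries. It rose by 3.53 ± 0.31 in vehicle (adjusted p = 3.68e-10) and by 2.98 ± 0.32 in SKF (adjusted p = 1.13e-08), on 2 to 16 counts per normal control library. Mcl1, a short-lived guardian of the mitochondrial membrane, ran from 42.6 to 58.7 CPM in normal control (median 47.6), from 81.3 to 135 in vehicle (median 106) and from 88.6 to 108 in SKF (median 96.2). The lowest wounded library was well above the highest control. Mcl1 rose by 1.17 ± 0.09 in vehicle (adjusted p = 1.04e-11) and by 1.02 ± 0.09 in SKF (adjusted p = 1.84e-10).

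Bcl2l2, or Bcl-w, which is abundant in neurons, ran from 183 to 211 CPM in normal control, from 137 to 178 in vehicle and from 155 to 177 in SKF. Its wounded libraries were all below the controls, and it fell by 0.31 ± 0.05 in vehicle (adjusted p = 1.46e-05) and by 0.23 ± 0.05 in SKF (adjusted p = 0.000757). In SKF the difference was -0.12 on log2(TPM + 1), which did not pass (limma adjusted p = 0.082). Bcl2l1, or Bcl-xL, had a log2 fold change of -0.06 in both wounded groups and of 0.06 in vehicle and 0.05 in SKF on log2(TPM + 1), and passed on neither scale. Mcl1 and Bcl2a1 gained more TPM than Bcl2l2 lost, and the 4 genes summed to 231 ± 17.5 TPM (SD, n = 8) in normal control, against 331 ± 38.5 in vehicle and 309 ± 21.5 in SKF. Summed as CPM, normal control libraries had a median of 350 (321 to 367). Vehicle libraries had 377 (331 to 413) and SKF libraries 367 (346 to 387). These CPM ranges overlapped, so the size of the rise in this sum depended on the scale. In TPM, Bcl2l2 was above Mcl1 in normal control (132 ± 9.57 against 56.6 ± 6.65), and in vehicle the order of the means turned (116 ± 9.86 against 139 ± 24.9) with overlapping libraries.

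Of the 32 genes of the 41 that matched a RefSeq promoter (GRCr8, from 250 bases before to 50 bases after the annotated start), 3 (Fadd, Mcl1 and Pmaip1) held the NF-kB consensus motif on either strand (9.38%), against 4.18% of 33469 promoters of that length. The Mcl1 promoter is shown since Mcl1 was the most abundant of the genes that at least doubled in both wounded groups. The 250 bases before its start lie at chr2:185907918-185908167 on the plus strand of GRCr8, and the capitals mark the motif, which begins 99 bases before the start.
Mcl1: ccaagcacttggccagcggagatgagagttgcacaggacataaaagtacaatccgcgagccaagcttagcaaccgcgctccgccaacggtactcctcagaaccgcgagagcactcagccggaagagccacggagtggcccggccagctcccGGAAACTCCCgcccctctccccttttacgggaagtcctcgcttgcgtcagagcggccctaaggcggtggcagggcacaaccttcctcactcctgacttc
The match describes these letters, and binding was not measured. Whether 9.38% of 32 promoters differs from the 4.18% of all promoters was not tested.

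Among the pore-forming Bcl2 proteins, which permeabilize the outer mitochondrial membrane, Bax and Bak1 rose and Bok fell. Bak1 ran from 10.3 to 12.4 CPM in normal control (median 11.5), from 18.3 to 30.9 in vehicle (median 24.7) and from 21.7 to 26.1 in SKF (median 24.2). Bax ran from 19.6 to 24.2 CPM in normal control (median 20.5), from 20.9 to 35.4 in vehicle (median 29.9) and from 25.2 to 33.6 in SKF (median 28.8). Bak1 had no overlap between controls and wounded libraries, while for Bax vehicle 5 and vehicle 1 fell within the control range and all SKF libraries lay above it. Bak1 rose by 1.12 ± 0.09 in vehicle (adjusted p = 1.54e-11) and by 1.05 ± 0.09 in SKF (adjusted p = 7.39e-11). Bax rose by 0.47 ± 0.09 in vehicle (adjusted p = 0.00013) and by 0.45 ± 0.09 in SKF (adjusted p = 0.000229).

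Bok, a relative of Bax and Bak1 that is strongly expressed in brain, was the gene with the steepest fall and with a wide spread in normal brain. It ran from 22.2 to 95.5 CPM in normal control (median 51.5), from 14.2 to 25.4 in vehicle (median 18.5) and from 13.3 to 46.2 in SKF (median 20.6). Normal control 1 and 2 were highest, normal control 6 reached down to the vehicle range, and SKF 4 reached up among the controls. Bok fell by 1.50 ± 0.30 in vehicle (adjusted p = 0.000229) and by 1.30 ± 0.30 in SKF (adjusted p = 0.00095), and by 1.33 in vehicle without normal control 1. It was the 4th of the genes by mean TPM in normal control, 15th in vehicle and 12th in SKF. The 3 pore formers summed to 127 ± 46.7 TPM (SD, n = 8) in normal control, against 106 ± 7.89 in vehicle and 107 ± 19.7 in SKF, a mean difference smaller than the spread between normal control libraries.

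**Figure D2:**
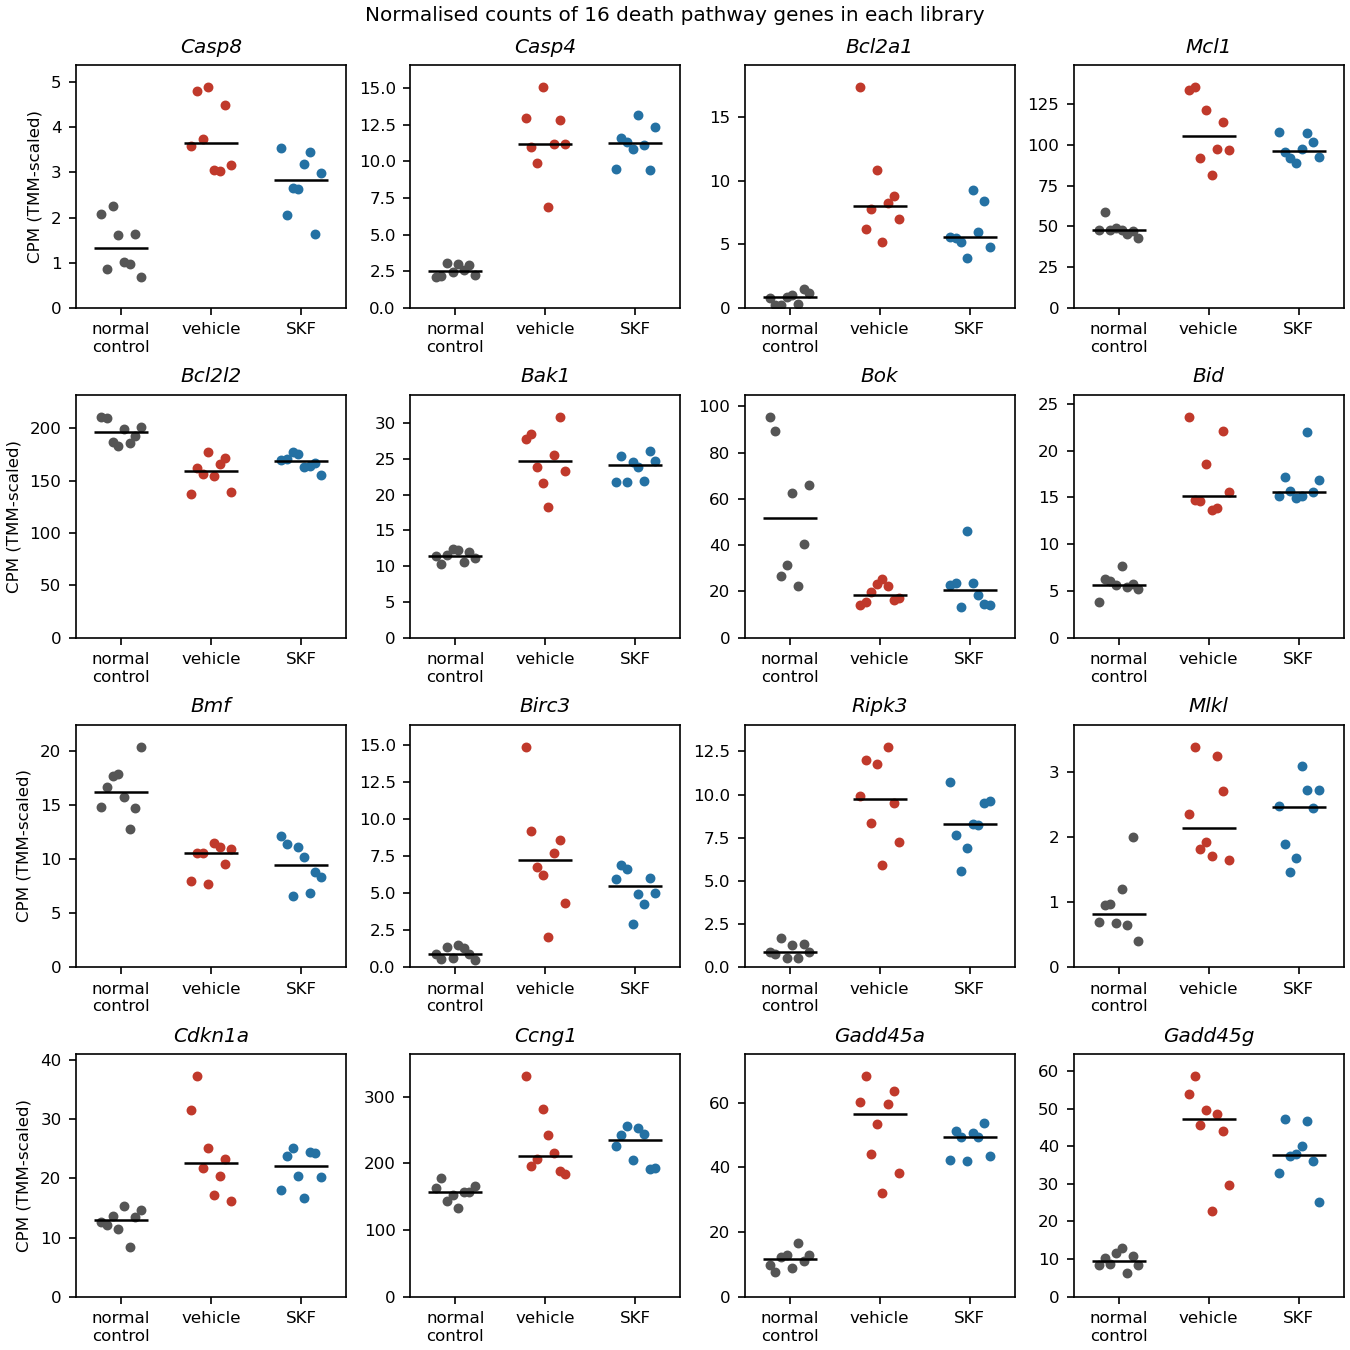
TMM-scaled CPM (y axis, from 0) of 16 genes in each of 24 libraries (points, by group on the x axis), with the group median as a bar; the 16 were chosen after their values were seen. Ripk3, Casp4 and Gadd45a show vehicle and SKF wholly above normal control, Bcl2l2 and Bmf wholly below, and Bok a wide control group that overlaps both.

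Of 6 tested BH3-only proteins, the sensors that start the intrinsic pathway, Bid and Pmaip1 rose, Bmf fell and Bcl2l11, Bad and Bbc3 did not pass. Bid, which Casp8 cuts to link death receptors to the mitochondrion, ran from 3.76 to 7.69 CPM in normal control (median 5.67), from 13.6 to 23.6 in vehicle (median 15.1) and from 14.9 to 22.0 in SKF (median 15.6). Every wounded library was above every control. Bid rose by 1.57 ± 0.13 in vehicle (adjusted p = 1.35e-10) and by 1.53 ± 0.13 in SKF (adjusted p = 2.59e-10). Bmf, which is tethered to the cytoskeleton until cells detach, ran from 12.8 to 20.4 CPM in normal control (median 16.2), from 7.73 to 11.5 in vehicle (median 10.6) and from 6.57 to 12.1 in SKF (median 9.48). No wounded library reached the lowest control. Bmf fell by 0.71 ± 0.13 in vehicle (adjusted p = 2.67e-05) and by 0.79 ± 0.13 in SKF (adjusted p = 6.38e-06).

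Pmaip1 (Noxa) and Bbc3 (Puma), the BH3-only genes that p53 induces, had unequal values. Pmaip1 was 6.58 to 10.6 CPM in normal control, 9.79 to 17.7 in vehicle and 8.89 to 13.4 in SKF, and it rose by 0.62 ± 0.12 in vehicle and by 0.40 ± 0.12 in SKF. Bbc3 had a log2 fold change of 0.33 ± 0.14 in vehicle (adjusted p = 0.0579) and 0.28 ± 0.14 in SKF (adjusted p = 0.106). It passed in vehicle without normal control 2 (adjusted p = 0.0248), normal control 8 (0.0311) or vehicle 5 (0.0384) and on log2(TPM + 1) (limma adjusted p = 0.00449), and in SKF without normal control 2 (0.048) and on log2(TPM + 1) (limma adjusted p = 0.0171). Bcl2l11 (Bim) had -0.25 in vehicle and -0.26 in SKF, and both passed without normal control 6 (adjusted p = 0.0215 each), without normal control 4 and 6 (0.0326 each) and in limma voom with sample weights (0.0458 and 0.047). Bad, which growth factor signalling keeps phosphorylated, had -0.14 in vehicle (adjusted p = 0.0842) and passed without normal control 4 (adjusted p = 0.0453) or vehicle 2 (0.0386). The 7 BH3-only genes in the table summed to 70.2 ± 5.09 TPM (SD, n = 8) in normal control, against 89.8 ± 6.49 in vehicle and 88.9 ± 7.52 in SKF. Summed as CPM, normal control libraries had a median of 96.4 (85.4 to 101.7). Vehicle libraries had 97.7 (92.9 to 111.5) and SKF libraries 102.6 (93.6 to 109.2). These CPM ranges overlapped, so the rise of this sum rests on the TPM scale.

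The inhibitors of apoptosis are ubiquitin ligases, of which Xiap blocks caspases directly and Birc2 and Birc3 act on receptor complexes that hold Ripk1. Birc3, a target of NF-kB, ran from 0.494 to 1.48 CPM in normal control (median 0.899), from 2.06 to 14.9 in vehicle (median 7.23) and from 2.90 to 6.92 in SKF (median 5.46). All wounded libraries were above the controls, with vehicle 1 at the top and vehicle 5 at the bottom of a wide vehicle range. Birc3 rose by 2.96 ± 0.31 in vehicle (adjusted p = 7.84e-09) and by 2.48 ± 0.31 in SKF (adjusted p = 2.21e-07), on 5 to 16 counts per normal control library. Birc2 ran from 34.8 to 43.7 CPM in normal control (median 40.7), from 39.9 to 57.1 in vehicle (median 46.3) and from 41.5 to 49.8 in SKF (median 44.9). Its groups overlapped, and it rose by 0.28 ± 0.07 in vehicle (adjusted p = 0.00172) and by 0.18 ± 0.07 in SKF (adjusted p = 0.0383). The SKF call of Birc2 was lost when any 1 of normal control 4, 5 and 7 or SKF 2, 3, 5, 6 and 8 was left out (adjusted p up to 0.0939), and also with the replicate number as a block (0.0512).

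Xiap had a log2 fold change of -0.17 in vehicle (adjusted p = 0.0887) and fell by 0.22 ± 0.08 in SKF (adjusted p = 0.0242). The vehicle value passed without vehicle 2 (adjusted p = 0.0259) or vehicle 8 (0.0285). The SKF call was lost without normal control 6 (adjusted p = 0.0616) or SKF 2 (0.055) and on log2(TPM + 1) (limma adjusted p = 0.205). Since both values were near the threshold and Xiap differed by -0.06 between SKF and vehicle (95% confidence interval -0.23 to 0.11), its calls do not show a difference between the wounded groups.

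The death receptor adaptors Fadd, Cflar and Ripk1 all rose in vehicle. Ripk1, the kinase that stands between survival, apoptosis and necroptosis, ran from 13.5 to 17.8 CPM in normal control (median 15.0), from 23.5 to 31.4 in vehicle (median 24.5) and from 21.5 to 28.1 in SKF (median 23.5). Fadd, the adaptor that binds Casp8, ran from 6.98 to 10.2 CPM in normal control (median 9.25), from 11.9 to 16.1 in vehicle (median 13.2) and from 11.2 to 18.6 in SKF (median 12.7). For both genes each wounded library was above each control. Ripk1 rose by 0.77 ± 0.08 in vehicle (adjusted p = 5.10e-09) and by 0.64 ± 0.08 in SKF (adjusted p = 1.77e-07). Fadd rose by 0.60 ± 0.10 in vehicle (adjusted p = 1.24e-05) and by 0.58 ± 0.10 in SKF (adjusted p = 2.21e-05).

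Cflar (c-FLIP), which keeps Casp8 from full activation, was called in vehicle and not in SKF. It was 8.13 to 12.6 CPM in normal control, 10.3 to 21.9 in vehicle and 10.0 to 14.9 in SKF, overlapping in all 3 groups. Its log2 fold change was 0.41 ± 0.13 in vehicle (adjusted p = 0.00798) and 0.25 ± 0.13 in SKF (adjusted p = 0.0998), and SKF against vehicle was -0.16 (95% confidence interval -0.41 to 0.10), so the groups were not shown to differ. On log2(TPM + 1) Cflar passed in SKF as well (limma adjusted p = 0.02).

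All 3 necroptosis and pyroptosis effectors rose, and Ripk3 had the second largest log2 fold change of all 38 genes in vehicle and the largest in SKF. Ripk3, the kinase that phosphorylates Mlkl, ran from 0.511 to 1.66 CPM in normal control (median 0.889), from 5.93 to 12.8 in vehicle (median 9.72) and from 5.57 to 10.7 in SKF (median 8.28). The wounded libraries were several times above the highest control. Ripk3 rose by 3.27 ± 0.21 in vehicle (adjusted p = 7.06e-13) and by 3.05 ± 0.21 in SKF (adjusted p = 3.37e-12), or 9.65-fold and 8.30-fold. These values rest on 5 to 17 counts per normal control library. Gsdmd, the pore protein of pyroptosis, ran from 3.58 to 7.44 CPM in normal control (median 4.88), from 6.94 to 11.8 in vehicle (median 8.57) and from 6.34 to 10.6 in SKF (median 7.51). Normal control 3, the highest control, reached into both wounded ranges. Gsdmd rose by 0.76 ± 0.15 in vehicle (adjusted p = 0.000116) and by 0.59 ± 0.15 in SKF (adjusted p = 0.00187).

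Mlkl, the executioner of necroptosis, rose by 1.29 ± 0.26 in vehicle (adjusted p = 0.000168) and by 1.27 ± 0.26 in SKF (adjusted p = 0.000211), on 4 to 22 counts per normal control library. It stayed scarce, from 0.309 to 1.64 TPM in normal control (median 0.674), from 1.45 to 2.89 in vehicle (median 1.91) and from 1.22 to 2.75 in SKF (median 2.11), and normal control 7 reached into the wounded range. In vehicle the 3 effectors summed to 21.6 ± 3.47 TPM, against 6.86 ± 1.99 in normal control and 18.8 ± 3.50 in SKF. The RefSeq promoter of Ripk3 is shown for the largest rise in this group. It was 1 of 4 among the 32 matched genes (12.5%) with an AP-1 motif, spelled TGANTCA and searched on both strands, against 7.33% of all promoters. The 250 bases before its start are chr15:33262026-33262275 on the minus strand of GRCr8, and capitals mark the motif, which begins 64 bases before the start.
Ripk3: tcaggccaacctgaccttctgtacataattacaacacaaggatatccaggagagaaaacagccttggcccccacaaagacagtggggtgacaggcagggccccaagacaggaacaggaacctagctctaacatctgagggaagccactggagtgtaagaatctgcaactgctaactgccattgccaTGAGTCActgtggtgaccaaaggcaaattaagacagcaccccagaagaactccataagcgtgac
The other 3 genes with this motif were Bcl2a1, Birc2 and Diablo. Whether 12.5% of 32 promoters differs from the 7.33% of all promoters was not tested. The cAMP response element TGACGTCA was in the promoter of none of the 32 genes, against 1.83% of all promoters. With only 32 promoters, finding none cannot be told apart from that share.

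The 4 p53 target genes rose together, with a median log2 fold change of 0.66 in vehicle and 0.58 in SKF. Cdkn1a (p21), which halts the cell cycle, ran from 8.46 to 15.3 CPM in normal control (median 13.0), from 16.2 to 37.2 in vehicle (median 22.5) and from 16.6 to 25.1 in SKF (median 22.1). Mdm2, the ubiquitin ligase that removes p53, ran from 28.7 to 37.0 CPM in normal control (median 34.7), from 38.8 to 77.2 in vehicle (median 50.5) and from 36.9 to 50.5 in SKF (median 49.3). All vehicle libraries were above all controls for both genes, with vehicle 2 the highest, and for Mdm2 SKF 4 fell within the control range. Cdkn1a rose by 0.92 ± 0.15 in vehicle (adjusted p = 7.87e-06) and by 0.76 ± 0.15 in SKF (adjusted p = 9.72e-05). Mdm2 rose by 0.61 ± 0.11 in vehicle (adjusted p = 2.31e-05) and by 0.48 ± 0.11 in SKF (adjusted p = 0.000479).

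Ccng1, a cyclin that recruits a phosphatase to Mdm2, was by far the most abundant of the 4, at 128 ± 10.9 TPM (SD, n = 8) in normal control, against 207 ± 48.9 in vehicle and 200 ± 28.6 in SKF. It rose by 0.56 ± 0.10 in vehicle and by 0.54 ± 0.10 in SKF, with no overlap between wounded libraries and controls. Phlda3, an inhibitor of Akt signalling, rose by 0.70 ± 0.16 in vehicle and by 0.63 ± 0.16 in SKF. Normal control 6 was the lowest for Phlda3 at 12.6 CPM, and the highest control, at 39.4 CPM, lay within the vehicle range of 32.3 to 69.1.

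A p53 half-site, the consensus decamer searched on both strands, was present in the promoters of 4 of the 32 matched genes (12.5%), against 7.98% of all promoters. These were Ccng1, Cdkn1a, Cflar and Gadd45a. Those of Cdkn1a, Ccng1 and Gadd45a are shown as the 250 bases before the RefSeq start (GRCr8), with capitals marking the match, since these genes rose in both wounded groups. They lie at chr20:7150682-7150931 (plus strand), chr10:25684877-25685126 (minus strand) and chr4:97486800-97487049 (minus strand).
Cdkn1a: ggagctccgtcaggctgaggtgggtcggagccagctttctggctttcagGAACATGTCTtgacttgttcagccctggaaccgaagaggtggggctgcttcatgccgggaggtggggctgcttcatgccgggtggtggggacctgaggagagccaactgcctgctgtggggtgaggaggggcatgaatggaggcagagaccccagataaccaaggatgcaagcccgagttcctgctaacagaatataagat
Ccng1: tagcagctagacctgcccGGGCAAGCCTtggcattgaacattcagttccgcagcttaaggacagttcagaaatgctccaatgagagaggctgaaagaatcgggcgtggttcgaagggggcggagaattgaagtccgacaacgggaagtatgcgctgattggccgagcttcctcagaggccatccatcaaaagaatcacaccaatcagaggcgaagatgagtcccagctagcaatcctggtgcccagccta
Gadd45a: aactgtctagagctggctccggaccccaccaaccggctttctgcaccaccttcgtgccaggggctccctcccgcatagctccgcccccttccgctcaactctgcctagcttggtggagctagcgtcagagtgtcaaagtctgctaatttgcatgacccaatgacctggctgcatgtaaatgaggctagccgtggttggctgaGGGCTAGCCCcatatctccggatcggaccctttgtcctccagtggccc
The match begins 201 bases before the start in Cdkn1a, 232 in Ccng1 and 48 in Gadd45a. Mdm2 is known to be induced by p53 from an internal promoter, which such a window does not cover.

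The Gadd45 genes encode stress sensors that bind cell cycle and MAP kinase partners, and all 3 rose at least 2-fold. Gadd45a ran from 7.74 to 16.5 CPM in normal control (median 11.8), from 32.1 to 68.2 in vehicle (median 56.4) and from 42.1 to 53.7 in SKF (median 49.4). Gadd45g ran from 6.40 to 13.1 CPM in normal control (median 9.57), from 22.9 to 58.6 in vehicle (median 47.1) and from 25.2 to 47.3 in SKF (median 37.6). Wounded and control libraries did not overlap for either gene, and vehicle 5 was the lowest and vehicle 2 the highest of its group in both. Gadd45a rose by 2.18 ± 0.15 in vehicle (adjusted p = 3.46e-12) and by 2.05 ± 0.15 in SKF (adjusted p = 1.32e-11). Gadd45g rose by 2.17 ± 0.17 in vehicle (adjusted p = 1.36e-10) and by 1.95 ± 0.17 in SKF (adjusted p = 1.02e-09). Gadd45b, which TNF and TGF-beta signalling also induce, rose by 1.38 ± 0.16 in vehicle and by 1.34 ± 0.16 in SKF. Summed, the family went from 56.9 ± 5.42 TPM (SD, n = 8) in normal control to 232 ± 59.4 in vehicle and 208 ± 33.7 in SKF.

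Ordered by mean TPM, the most abundant of the 39 genes in normal control were Cycs, Bcl2l2 and Ccng1, and the scarcest were Bik, Casp12 and Mlkl. Of 38 pairs of neighbours in that order, 36 had overlapping library ranges, so most neighbouring ranks do not differ beyond the spread. The exceptions were Cycs above Bcl2l2 and Casp9 above Birc2. Bcl2a1 went from rank 33 in normal control to 14 in vehicle and 19 in SKF. Gadd45g went from 15 to 5 in both, and Gadd45a from 19 to 8 in both. Within groups, the median coefficient of variation of CPM over the 38 genes was 19.5% in vehicle, against 15.2% in normal control and 13.0% in SKF.

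**Figure D3:**
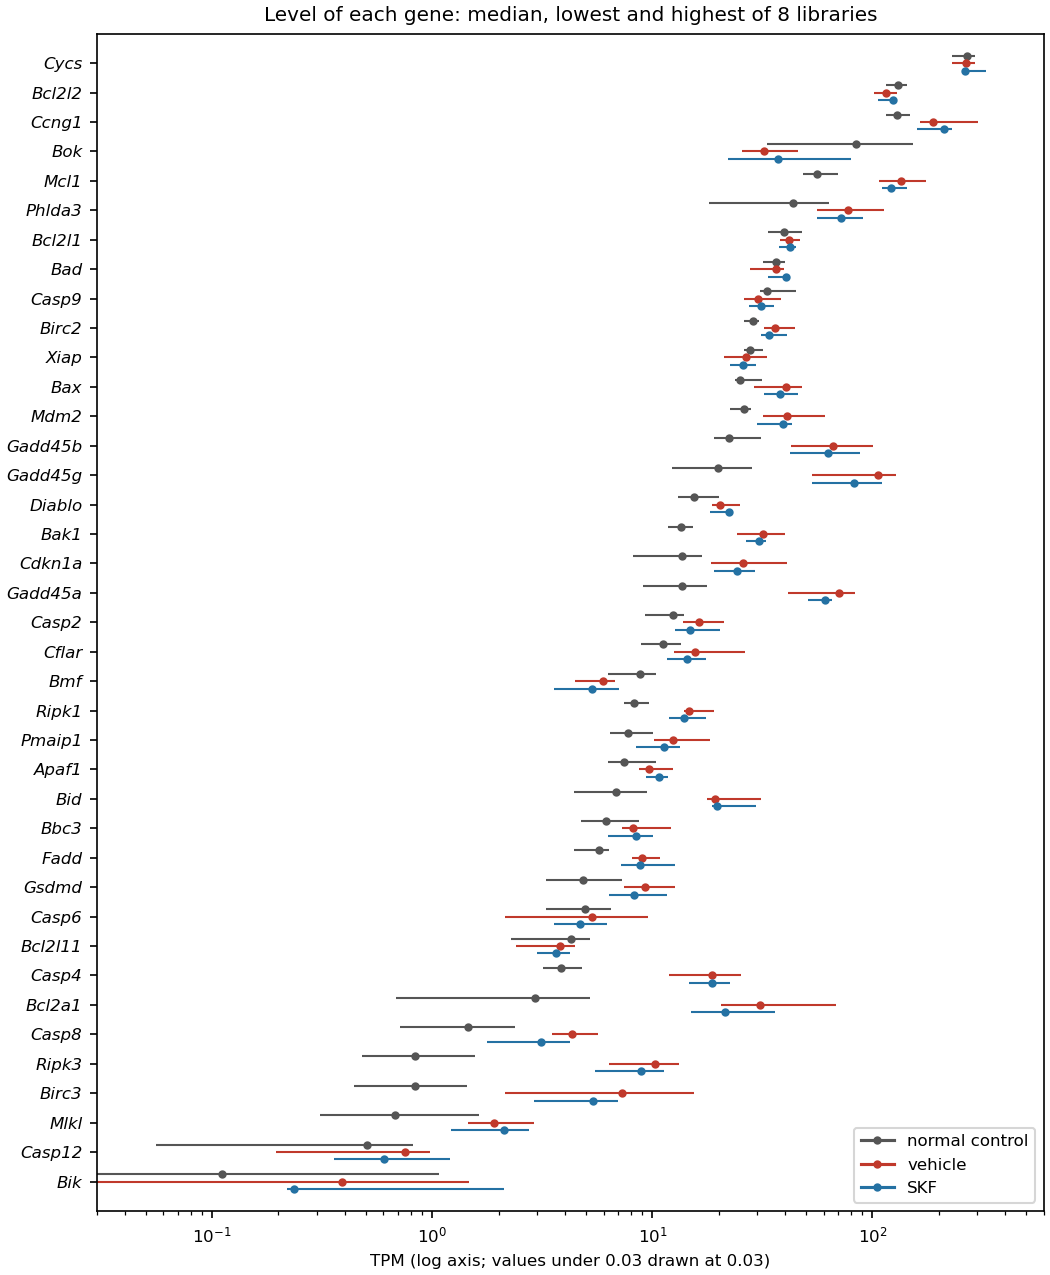
TPM (x axis, log scale) of the 39 genes in the table (y axis, ordered by mean TPM in normal control), as the median (point) and the lowest to highest (line) of 8 libraries in normal control (grey), vehicle (red) and SKF (blue). Cycs has the highest median in each group, though the highest vehicle library of Ccng1 lies above those of Cycs, while Bcl2a1, Ripk3 and Birc3 are near the bottom of the grey order and show the widest step to red and blue.

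Other genes of the same pathways are read against the 26.9% of all genes that rose and the 27.1% that fell in vehicle. Of 21 other p53 pathway genes tested in vehicle against normal control, 7 rose (33.3%), 7 fell and 7 did not pass, near the share of all genes, with a median log2 fold change of 0.01 (all genes -0.01). Btg2, an antiproliferative target, rose by 0.97 ± 0.15, while Perp, a membrane protein of the p53 response, fell by 0.75 ± 0.21 and Ddit4, an inhibitor of mTORC1, by 0.53 ± 0.09. Of 16 other intrinsic apoptosis genes, 7 rose (43.8%), 3 fell and 6 did not pass, with a median of 0.10. Birc5 (survivin) rose by 1.45 ± 0.23, while Endog, a mitochondrial nuclease, fell by 0.48 ± 0.12 and Bnip3l, a mitophagy receptor, by 0.32 ± 0.04. Of 17 other death receptor, necroptosis and pyroptosis genes, 11 rose (64.7%), 3 fell and 3 did not pass, with a median of 0.64. The receptors Fas and Tnfrsf1a rose by 2.47 ± 0.26 and 2.08 ± 0.12, while Gsdme, another gasdermin, fell by 0.67 ± 0.12 and the deubiquitinase Cyld by 0.49 ± 0.13. In SKF against normal control these 3 lists had 6 rises (28.6%) and 4 falls, 7 (43.8%) and 3, and 9 (52.9%) and 3, where 25.5% of all genes rose and 24.7% fell.

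Of the genes called in 1 wounded group and not in the other, Cflar was called in vehicle alone and Xiap in SKF alone, and for neither was a difference between SKF and vehicle detected. Bcl2l2 and Bmf, whose vehicle libraries were all below the controls, had all SKF libraries below them as well, a pattern of 7.11% of all genes in SKF. In SKF 15 genes (39.5%) were wholly above the controls, against 11.5% of all genes, Bax being added and Casp8 and Mdm2 missing from the vehicle list.

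SKF was set against vehicle to ask whether the agonist changed the death genes of wounded brain. No gene of the 38 passed the edgeR test, as none of all 14421 genes did (0.0%). At an unadjusted p under 0.05 there were 2 genes, Casp8 and Bcl2a1, or 5.26% against 4.96% of all genes, so the share was near the background. Limma voom with sample weights also called 0 of the 38, and DESeq2 and limma on log2 TPM called 0 of 39, with Bik included. For none of the 38 genes were SKF and vehicle libraries without overlap, and the share of all genes without overlap is not given here.

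Casp8 differed by -0.47 ± 0.21 on the log2 scale (95% confidence interval -0.90 to -0.04, edgeR adjusted p = 0.937), with a median of 2.82 CPM in SKF and 3.65 in vehicle. Bcl2a1 differed by -0.55 ± 0.25 (interval -1.07 to -0.03, edgeR adjusted p = 0.937), and by -0.35 without vehicle 1, its highest library. Both ranges overlapped, and neither difference passed the correction. Birc3 differed by -0.48 ± 0.26 (interval -1.02 to 0.05), and by -0.26 without vehicle 1. Pmaip1 differed by -0.22 ± 0.12 (interval -0.46 to 0.03), and by -0.15 without vehicle 1. Bad differed by 0.14 ± 0.07 (interval -0.0012 to 0.28), from 34.5 to 51.9 CPM in vehicle (median 45.4) and 45.2 to 55.3 in SKF (median 50.2), and by 0.09 without vehicle 1. Vehicle 1 was the highest vehicle library for Bcl2a1, Birc3 and Pmaip1 and the lowest for Bad.

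Of the 38 differences between SKF and vehicle, 29 were negative, against 7139 of all 14421 genes. The median of the 38 was -0.06, against 0.00 over all genes. These differences come from the same 16 libraries and are not independent of each other. All 3 genes of the apoptosome group were positive, while all inhibitors of apoptosis, receptor adaptors, necroptosis effectors, p53 targets and Gadd45 genes were negative, with every one of these intervals spanning 0. In the same comparison 7 of 7 neutrophil markers and 8 of 8 monocyte and macrophage markers were negative, 5 and 4 of them at an unadjusted p under 0.05 and none called. The part of those markers in the negative values was not tested. The 95% confidence intervals of 36 of 38 genes lay within a log2 difference of 1 either way, and those of 29 within 0.5. The lowest bound was -1.07 (Bcl2a1) and the highest 0.84 (Casp12). For the large rises the intervals were -0.57 to 0.14 in Ripk3, -0.27 to 0.22 in Casp4, -0.41 to 0.15 in Gadd45a, -0.54 to 0.12 in Gadd45g and -0.33 to 0.02 in Mcl1. A p that misses the threshold does not show that the groups were alike, and these intervals give the sizes that the data leave possible.

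**Figure D4:**
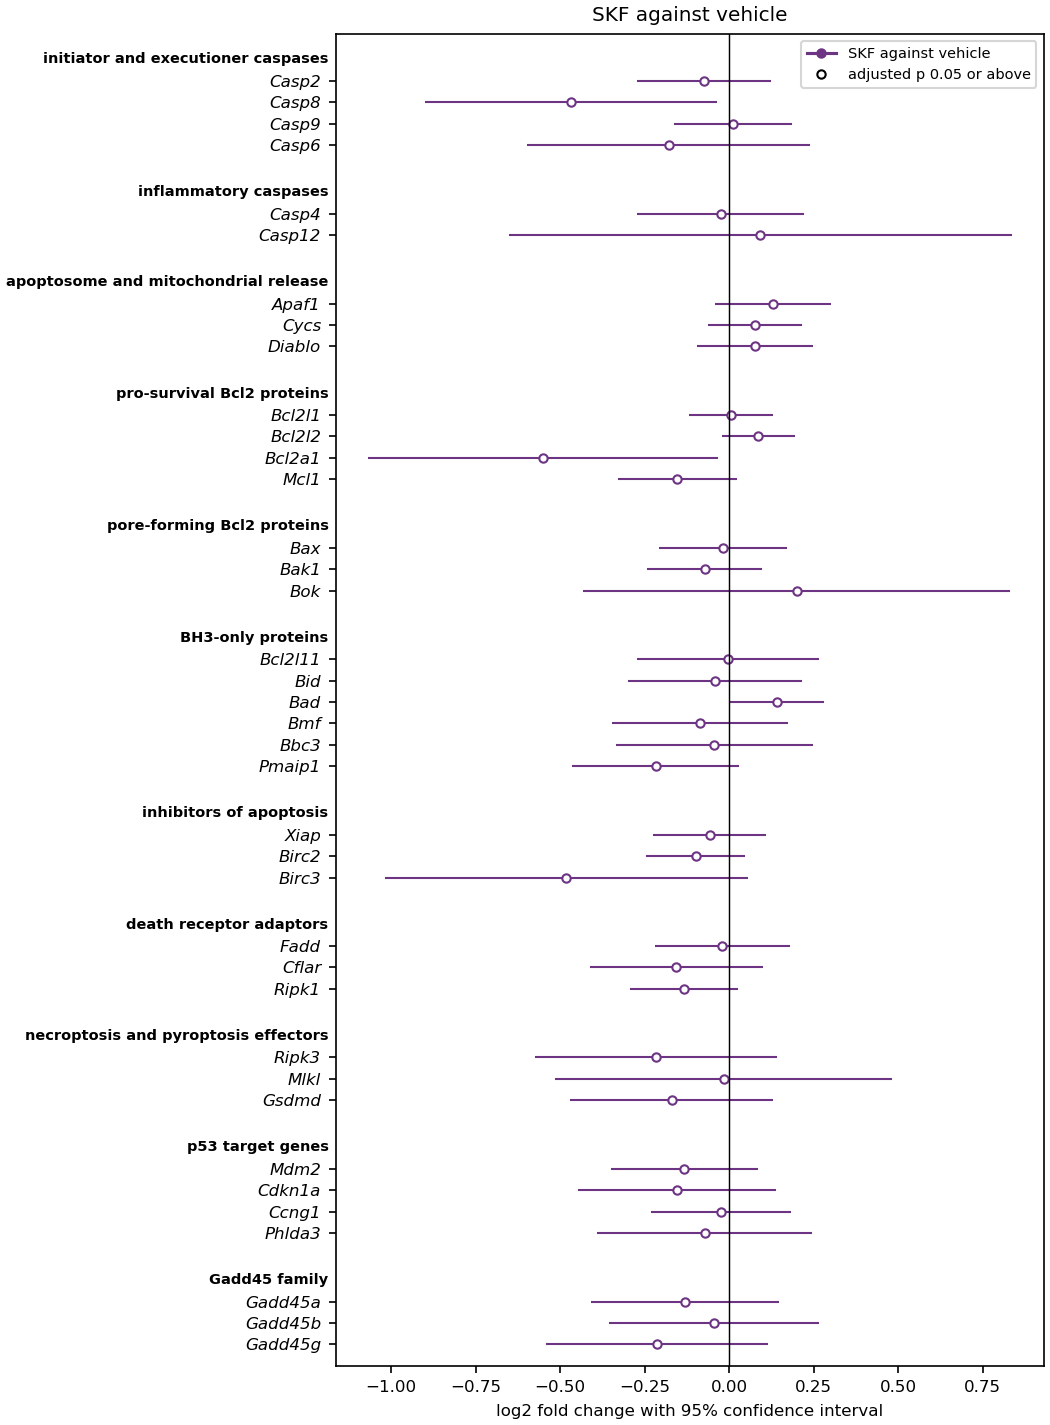
Log2 fold change of SKF against vehicle (x axis) with 95% confidence intervals for the 38 tested genes (y axis, grouped by role); open circles did not pass an adjusted p of 0.05, which is every gene. Casp8, Bcl2a1 and Birc3 lie farthest left, Casp12 and Bok have wide intervals, and 29 of 38 points are below 0 (7139 of all 14421 genes).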

How the data were processed

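RNA was sequenced from 24 rat brain samples (poly(A) selection and a directional library kit, per the labels' protocols). The authors deposited read counts for each gene and, for the same genes and samples, TPM. The build is mRatBN7.2, per the submitters' processing notes, and neither aligner nor counter is named in the sources used here. Main tests used the deposited counts, and the authors' TPM served an alternative and comparisons between genes.

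Groups were read from sample titles. The test was run in edgeR 4.0.16 under R 4.3.3 (TMM, filterByExpr by group, robust quasi-likelihood F test). The 24 libraries shared 1 fit, leaving 21 residual degrees of freedom, and p-values were adjusted by Benjamini-Hochberg over 14421 genes. SE is the size of the log2 fold change divided by the square root of F. Libraries held 8911339 to 12383368 counts, with a biological coefficient of variation of 16.2%. No 2 libraries held identical values. Replicate numbers recur across groups, but same-numbered samples did not deviate together (correlation -0.24 to 0.01 over 8 pairs of vehicle and normal control), so samples were treated as unpaired.

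The genes and lists were chosen with earlier results of these data known. Values by library are given for the 2 genes with the smallest adjusted p in each role group, for the 5 smallest p in SKF against vehicle, and for others chosen after their values were seen. Other pathway genes named are from the 2 largest rises and falls of each list, of which some are not reported here. Alternatives were RLE size factors, DESeq2 1.42.0, no filter, CPM of at least 1 in 8 libraries, only the 2 groups compared, limma 3.58.1 voom with sample weights, a replicate block, limma on log2 TPM (with 1 or 0.1 added, for genes reaching a TPM of 0.5 in 8 libraries), each library left out, and normal control 4 and 6 left out. The edgeR script was tested on simulated data. Promoters are from a RefSeq table (GRCr8). Of 8 motifs searched, 4 are reported. Figures used Python 3.11.15, pandas 2.3.3 and Matplotlib 3.10.9.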

Additional observations from a re-analysis of the deposited data

Results flagged for a closer look

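Within groups of 8 libraries, the highest or lowest value of a gene stood apart from the others in 12 of 114 groups tested, by Dixon's test on log2(CPM + 0.5). Chance flags about 1 group in 20. In normal control, library 2 was low for Casp2 (12.8 CPM, next 16.6) and high for Mcl1 (58.7, next 49.0). Normal control 6 was high for Casp9 (58.8 CPM, next 43.8) and Xiap (43.1, next 36.2) and low for Phlda3 (12.6, next 26.1). Normal control 1 was high for Apaf1 (26.1 CPM, next 20.7), and normal control 5 was low for Mdm2 (28.7, next 33.0). In vehicle, library 1 was high for Cflar (21.9 CPM, next 14.3). In SKF, library 4 was high for Bok (46.2 CPM, next 23.6) and low for Mdm2 (36.9, next 46.4), library 6 was high for Bid (22.0, next 17.2) and library 7 was high for Bcl2l1 (109.8, next 98.6).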

How the results depend on the processing

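Of the 38 genes, 30 were called in vehicle against normal control and in SKF against normal control, and 0 in SKF against vehicle. Over the alternatives these counts were 30 to 32, 29 to 31 and 0, and with 1 library left out 30 to 32, 28 to 30 and 0. DESeq2, log2 TPM and the run with no filter tested 39 genes, with Bik included. Among all genes, 7447 to 7845 were called in vehicle and 6885 to 7331 in SKF with 1 library left out. With the replicate number as a block, 30, 29 and 0 of the 38 genes and 7434, 6830 and 0 of all genes were called, and same-numbered samples did not correlate (no vehicle sample correlated best with its own number). Only Birc2 in SKF lost its call in the block. The sign turned in 4 genes that did not pass in that comparison. In vehicle, Casp6 (0.03) was -0.0048 in the replicate block, -0.028 without normal control 4 and 6, -0.095 with voom weights and -0.14 to 0.15 with 1 library left out, being negative without vehicle 2 (-0.14), vehicle 8 (-0.034) or normal control 6 (-0.024). On log2 TPM (pseudocount 1, then 0.1), Cycs was 0.0174 and 0.0175 in vehicle and 0.0628 and 0.0630 in SKF, and Bcl2l1 was 0.0641 and 0.0656 in vehicle and 0.0463 and 0.0475 in SKF. Bad in SKF (-0.0019) was 0.0023 with no filter, 0.0973 and 0.0996 on log2 TPM, and -0.028 to 0.017 with 1 library left out, being positive without normal control 1, 3, 5 or 8 (0.0162, 0.0033, 0.0089 and 0.0097) or SKF 5, 7 or 8 (0.0171, 0.0105 and 0.0096). The cause was not tested. Without normal control 4 and 6, 25 genes rose and 7 fell in vehicle: Apaf1 lost its call and Cycs, Bcl2l11 and Bad gained one. Low counts in normal control limit Bcl2a1, Birc3 and Casp12, the 3 genes with a mean under 10. Mlkl (mean 10.0) and Ripk3 (mean 10.4) were close to that limit.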
